A study of Homo sapiens with 12 samples.

Results

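The effect of added glucose was measured as 1 factor across all 12 libraries of the series, with 6 libraries that held added D-glucose set against 6 that did not and AGEs as the second factor. The labels call the cells neutrophils, induced from the leukaemia line HL-60. HL-60 is a human promyelocytic line that can be driven along the granulocyte path, so every library comes from a single line and holds no donor variation. Total RNA was sequenced after 24 h of stimulation, and FPKM (fragments scaled to gene length and to the library total) was deposited for each gene and library. The groups with glucose were AGEs plus glucose (0.05 ug/mL AGEs with 30 mM D-glucose, 3 libraries) and glucose (30 mM D-glucose, 3 libraries), and those without were AGEs (0.05 ug/mL AGEs, 3 libraries) and BSA (0.05 ug/mL BSA, the control, 3 libraries). AGEs is the usual short name of advanced glycation end products, proteins modified by sugars. All 4 groups shared the cell line and an RPMI medium with 10% FBS, and the glucose that this medium itself held is not given in the labels. No BSA is named in the label of the glucose group, so glucose and BSA differ in BSA too, whereas AGEs plus glucose and AGEs differ in glucose alone. No group with another sugar as an osmotic control is among the 12 libraries, so glucose as a nutrient and the added osmotic load cannot be told apart. Genes entered with 1 FPKM or more in 3 or more of the 12 libraries, which kept 9751.

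Cells take up glucose through the SLC2A transporters and trap it by phosphorylation with hexokinase. The transcription factors MondoA (MLXIP) and MLX sense the resulting sugar phosphates and drive TXNIP and ARRDC4, arrestin family members that restrain glucose uptake. Neutrophils make most of their ATP by glycolysis, and glucose also feeds their pentose phosphate pathway, which supplies the NADPH for the oxidative burst and for lipid synthesis.

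Of the 20 granulocyte markers 15 were measured, and CXCR1, FCGR3B, LTF, LCN2 and MMP9 were not analysed here. Their summed level ran from 1320 to 1519 FPKM in the libraries with glucose and from 1447 to 1506 FPKM in those without. The integrin chains ITGB2 and ITGAM and the oxidase subunits CYBB and NCF1 were abundant, with CYBB at a median of 372 FPKM with glucose and 389 FPKM without. Of the azurophil granule genes MPO was abundant, at medians of 108 FPKM with glucose and 111 FPKM without. AZU1 and CTSG lay at medians of 0.542 and 0.721 FPKM with glucose and 0.669 and 0.587 FPKM without. The proliferation markers MKI67 and TOP2A were present in every library, at medians of 19.5 and 39.8 FPKM with glucose and 19.1 and 39.6 FPKM without. Of the monocyte markers 4 of 10 were measured, of the T, NK and B cell markers 3 of 10 and of the erythroid and platelet markers 1 of 9. The eosinophil gene CLC was at a median of 2470 FPKM with glucose and 2294 FPKM without. Whether the 3 libraries of a group were separate cultures is not stated, so the p-values rest on a spread between samples that may be technical. FPKM holds no counts, so the depth is unknown. Libraries AGEs 1 and glucose 3 stood apart from the rest. Their limma weights (a library's relative precision) were 0.181 and 0.418, against 0.797 to 1.82 in the other 10.

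No gene passed the threshold for glucose. Limma with AGEs as the second factor called 0 genes higher and 0 lower at an adjusted p under 0.05 (0% of 9751 each way), and the smallest adjusted p was 0.101. At an unadjusted p under 0.05 there were 359 genes higher (3.68%) and 499 lower (5.12%), together 858 (8.8%), where chance alone gives 488. The changes were small. Of those 858 genes, 688 differed by less than 1.2-fold, and of all genes tested 411 differed by 1.2-fold or more, 40 by 1.5-fold or more and 2 by 2-fold or more. The median log2 change of all genes was 0.00, with 50.1% above 0, and the median standard error of a gene was 0.08 on the log2 scale. In 23 genes (0.236%) every library with glucose lay above every library without it, and in 46 genes (0.472%) every one lay below. In a bulk sample a lower level from fewer cells of a type and one from less RNA per cell cannot be told apart.

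The genes of glucose sensing and those of glucose uptake and phosphorylation both lay slightly below 0. TXNIP, the best known target of MondoA, had 183, 197 and 211 FPKM (lowest, median and highest) with glucose and 207, 219 and 234 FPKM without. Its log2 change was -0.15 ± 0.04 (SE, n = 6 and 6; limma adjusted p = 0.439). Of the libraries with glucose 4 of 6 lay below all of those without, so the groups overlapped. The log2 difference was -0.04 ± 0.05 for AGEs plus glucose minus AGEs and -0.25 ± 0.05 for glucose minus BSA, a gap that did not pass the interaction test (limma adjusted p = 0.936). ARRDC4, the second arrestin of this pair, differed by -0.00 ± 0.06, at medians of 4.998 FPKM with glucose and 5.33 FPKM without. ARRDC3, a relative in the same arrestin family, had medians of 1.78 FPKM with glucose and 2.498 FPKM without (-0.26 ± 0.08, limma adjusted p = 0.471). All 7 tested members of the glucose sensing list lay below 0, with a median of -0.08, and 2 had an unadjusted p under 0.05 (28.6%, against 8.8% of all genes). Without AGEs 1 the median was -0.05, and with trends in GC content and gene length removed it was -0.02.

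SLC2A1 and SLC2A3, the transporters GLUT1 and GLUT3, overlapped fully between the groups. SLC2A1 stood at 15.3, 15.8 and 17.6 FPKM with glucose and 14.9, 17.9 and 19.7 FPKM without (-0.12 ± 0.06, limma adjusted p = 0.597). SLC2A3 stood at 38.4, 39.4 and 41.0 FPKM with glucose and 35.8, 40.6 and 46.1 FPKM without (-0.04 ± 0.06, limma adjusted p = 0.867). The sign of SLC2A3 turned between AGEs levels, at 0.12 ± 0.05 with AGEs and -0.20 ± 0.05 without, and the interaction did not pass (limma adjusted p = 0.464). SLC2A5, a fructose transporter, lay lower with glucose in 4 of 6 libraries than in any without it, at medians of 70.8 and 76.0 FPKM (-0.10 ± 0.04, limma adjusted p = 0.541). The hexokinases HK1 and HK2 differed by -0.03 ± 0.06 and 0.01 ± 0.04. HK3, the hexokinase typical of myeloid cells, had medians of 43.5 FPKM with glucose and 47.1 FPKM without (-0.14 ± 0.06, limma adjusted p = 0.541). Of the 9 transport and phosphorylation genes tested 8 lay below 0, with a median of -0.07 that was -0.04 with the GC and length trends removed.

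The enzymes downstream showed no common direction. Of 21 glycolysis genes 12 lay above 0 and 9 below, with a median of 0.00. Among them 1 had an unadjusted p under 0.05 (4.76%, against 8.8% of all genes). That gene was LDHB, a lactate dehydrogenase chain, with medians of 113 FPKM with glucose and 99.3 FPKM without (0.14 ± 0.05, limma adjusted p = 0.497). LDHA, the partner chain, was at 66.1 and 58.9 FPKM with wide overlap. The pentose phosphate, hexosamine and polyol genes divided evenly, 8 above 0 and 8 below. Of 22 genes of the tricarboxylic acid cycle 13 lay above 0 and 9 below. DLST, a subunit of the oxoglutarate dehydrogenase complex, had medians of 7.57 FPKM with glucose and 9.68 FPKM without (-0.39 ± 0.14, limma adjusted p = 0.507), and FH, the fumarase, had 25.9 and 24.1 FPKM (0.13 ± 0.05, limma adjusted p = 0.514). The 18 tested targets of the hypoxia factor HIF1 had a median of 0.02, made of 0.17 with AGEs, where 16 lay above 0, and -0.09 without AGEs, where 2 did. It turned to -0.01 without AGEs 1 and lay just below 0 without AGEs plus glucose 1.

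**Figure D1:**
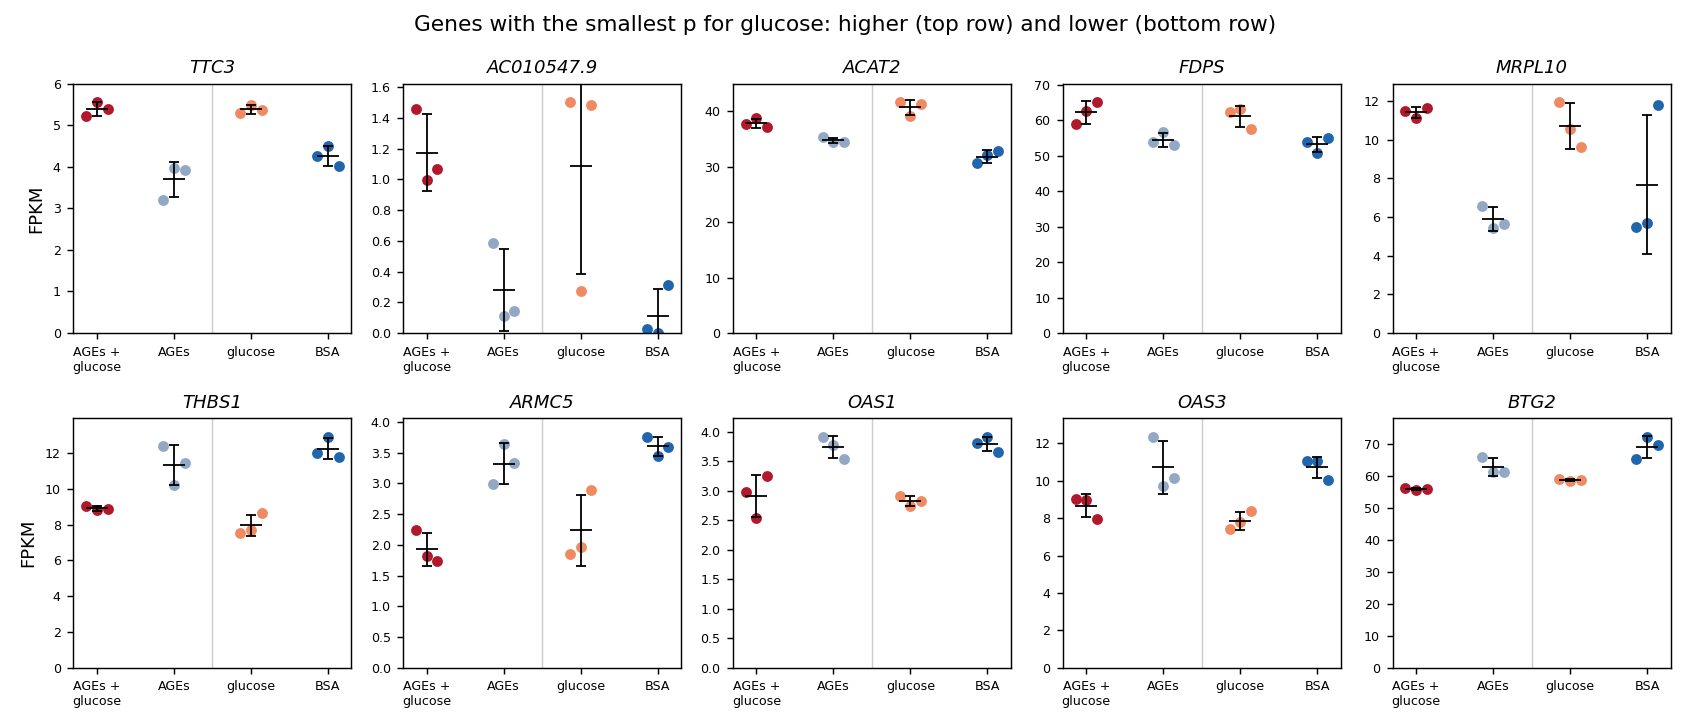
FPKM of the 10 genes with the smallest p for glucose, 5 higher (top row) and 5 lower (bottom row), in AGEs plus glucose, AGEs, glucose and BSA. Points are libraries, bars are the mean and SD of 3, axes start at 0, and in AC010547.9 and MRPL10 single libraries cross between the groups. AC010547.9 passed the filter only through libraries with glucose.

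Of the genes lower with glucose, THBS1 and ARMC5 had the smallest p. THBS1 encodes thrombospondin 1, a secreted matrix protein that binds integrins and CD36. It had 9.04, 8.80 and 8.87 FPKM in AGEs plus glucose and 7.55, 7.69 and 8.64 FPKM in glucose, against 12.4, 10.2 and 11.4 FPKM in AGEs and 12.02, 12.9 and 11.8 FPKM in BSA. Every library with glucose lay below every one without. The log2 change was -0.44 ± 0.07 (SE, n = 6 and 6; limma adjusted p = 0.101), made of -0.31 ± 0.08 with AGEs and -0.56 ± 0.08 without. Without library AGEs 2 limma called it (adjusted p = 0.0383), and over the 27 further fits its adjusted p ran from 0.0215 to 1. THBS1 overlaps the span of the gene FSIP1, and the strand setting of the counting is not given. Reads from any stretch the pair shares cannot be told apart, and whether exons coincide was not looked up.

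ARMC5, an armadillo repeat protein and adaptor of a ubiquitin ligase, had 2.24, 1.82 and 1.73 FPKM in AGEs plus glucose and 1.86, 1.96 and 2.90 FPKM in glucose. It had 2.99, 3.64 and 3.34 FPKM in AGEs and 3.76, 3.45 and 3.601 FPKM in BSA. The groups did not overlap, and the values nearest to each other were those of glucose 3 and AGEs 1, the libraries that stood apart. Its log2 change was -0.54 ± 0.08 (limma adjusted p = 0.101), close to the same with AGEs (-0.56 ± 0.12) and without (-0.52 ± 0.12). Limma called it without glucose 3 (adjusted p = 0.011) and, in a fit chosen after seeing the data, without both libraries (adjusted p = 0.0103). Over the further fits its adjusted p ran from 0.0103 to 1.

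The type I interferon list lay lowest of those described. These genes are switched on by interferon and encode antiviral proteins, and 23 of the 25 tested members lay below 0 with a median log2 change of -0.17, against 0.00 over all genes. None was called by limma, while 12 lower members (0 higher) had an unadjusted p under 0.05, a share of 48.0% where all genes had 8.8%. The mean deviation of the members from each gene's own average ran from -0.15 to -0.04 in the 6 libraries with glucose and from 0.06 to 0.16 in the 6 without, with no overlap. Without glucose 3 the median was -0.16, and without library AGEs 1 it was -0.20. By AGEs level it was -0.09 with AGEs, where 22 lay below 0, and -0.20 without AGEs, where 23 did.

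OAS1 and OAS3, synthetases of the oligoadenylate that activates the nuclease RNase L, led the list. OAS1 had 2.97, 2.54 and 3.24 FPKM in AGEs plus glucose and 2.91, 2.75 and 2.83 FPKM in glucose, against 3.92, 3.77 and 3.54 FPKM in AGEs and 3.80, 3.91 and 3.66 FPKM in BSA (-0.30 ± 0.05, limma adjusted p = 0.256). OAS3 had 9.03, 8.99 and 7.95 FPKM in AGEs plus glucose and 7.41, 7.79 and 8.39 FPKM in glucose, against 12.3, 9.70 and 10.1 FPKM in AGEs and 11.04, 11.05 and 10.1 FPKM in BSA (-0.34 ± 0.07, limma adjusted p = 0.376). For both genes all 6 libraries with glucose lay below all 6 without. IRF7, the factor that amplifies interferon production, had medians of 4.94 FPKM with glucose and 6.24 FPKM without, and 1 library with glucose crossed into the other range (-0.31 ± 0.07, limma adjusted p = 0.376). IFIT2, a protein that blocks translation of viral RNA, had medians of 1.69 and 2.15 FPKM with no overlap (-0.27 ± 0.07, limma adjusted p = 0.43). It overlaps the gene LIPA.

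The promoters of OAS3 and OAS1 are shown because these genes led the list, with capitals for the core of the interferon-stimulated response element, GAAANNGAA, searched on both strands after the values were seen. The windows run from 250 bases before to 50 after the gene start in RefSeq on GRCh38.p14, at chr12:112938224-112938523 for OAS3 and chr12:112906712-112907011 for OAS1, both on the plus strand.
OAS3: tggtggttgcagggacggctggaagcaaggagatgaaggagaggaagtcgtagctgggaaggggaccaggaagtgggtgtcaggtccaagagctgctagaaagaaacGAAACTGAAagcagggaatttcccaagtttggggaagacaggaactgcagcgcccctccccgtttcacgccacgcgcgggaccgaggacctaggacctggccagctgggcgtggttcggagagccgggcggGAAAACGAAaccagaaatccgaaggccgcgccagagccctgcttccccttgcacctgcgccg
OAS1: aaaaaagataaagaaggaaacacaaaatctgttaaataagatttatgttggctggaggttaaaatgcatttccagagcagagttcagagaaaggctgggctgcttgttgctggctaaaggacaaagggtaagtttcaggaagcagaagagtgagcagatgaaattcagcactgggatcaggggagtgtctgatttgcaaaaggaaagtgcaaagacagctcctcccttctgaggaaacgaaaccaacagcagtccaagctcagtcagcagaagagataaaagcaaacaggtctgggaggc
The OAS3 window holds 2 matches, starting at its bases 108 and 239, which do not overlap each other, and the OAS1 window holds 0. The OAS1 window does hold the run gaaacgaaa, whose spacer between gaaa and gaaa is shorter than the NN of the core. The search with a fixed spacer could not count it, so the 0 does not show that OAS1 lacks a response element. Of 19 list members with a promoter available, 10 held a match (52.6%), against 530 of 7964 genes tested (6.65%). The list holds genes known to be switched on by interferon, so this share does not bear on glucose. A match is a run of letters and was not tested for binding.

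Immediate early genes, which cells transcribe within minutes of a stimulus, lay below 0 in 19 of 20 tested members, with a median of -0.12, which was -0.08 with the GC and length trends removed. No member was called by limma, and 7 lower and 0 higher members had an unadjusted p under 0.05 (35.0%, against 8.8% of all genes). The members' mean deviation ran from -0.17 to 0.02 in the libraries with glucose and from 0.03 to 0.11 in those without. These ranges did not overlap, but they came close, since AGEs plus glucose 2 lay at 0.02 and AGEs 2 at 0.03.

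BTG2, an antiproliferative partner of the deadenylase complex, had 56.3, 55.6 and 55.9 FPKM in AGEs plus glucose and 58.9, 58.4 and 58.8 FPKM in glucose, against 65.9, 61.1 and 61.3 FPKM in AGEs and 65.3, 72.2 and 69.5 FPKM in BSA. All 6 libraries with glucose lay below those without, and the log2 change was -0.20 ± 0.04 (limma adjusted p = 0.376). JUNB, a subunit of AP-1, had medians of 53.8 FPKM with glucose and 59.9 FPKM without (-0.20 ± 0.06, limma adjusted p = 0.43) and overlaps the gene HOOK2. EGR2, a zinc finger factor of macrophage activation, had medians of 1.85 and 2.33 FPKM (-0.29 ± 0.08, limma adjusted p = 0.43). Neither gene overlapped between the groups. IER3, an early gene that is also a target of NF-kB, had medians of 11.4 FPKM with glucose and 13.7 FPKM without, with overlap (-0.28 ± 0.08, limma adjusted p = 0.439).

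Targets of NF-kB, the factor of inflammatory transcription, were mixed, with 15 of 21 below 0 and a median of -0.09, which was -0.05 with the GC and length trends removed. ICAM1, the endothelial and leukocyte ligand of the beta-2 integrins, had 41.3, 42.9 and 45.0 FPKM with glucose and 43.6, 51.9 and 55.3 FPKM without (-0.23 ± 0.06, limma adjusted p = 0.418). BCL3, a nuclear IkB protein, had medians of 6.37 and 7.93 FPKM (-0.23 ± 0.06, limma adjusted p = 0.43). In both genes 5 of 6 libraries with glucose lay below all of those without. TNFAIP3, the feedback inhibitor A20, differed by -0.18 ± 0.06 (limma adjusted p = 0.486).

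Cytokine and chemokine genes lay below 0 in 18 of 21 members, yet the size moved with the AGEs level and with single libraries. With AGEs the median was -0.01, with 13 below 0, and without AGEs it was -0.21, with 18 below 0. That gap was not tested over the list. Over all 12 libraries the median was -0.13. It was -0.09 without library AGEs 2 and -0.05 without glucose 3. The mean deviation of glucose 3 over the list was -0.26, while the other 5 libraries with glucose lay between -0.04 and 0.03. TNF, the master inflammatory cytokine, had 26.3, 29.7 and 30.7 FPKM with glucose and 31.6, 33.0 and 33.3 FPKM without, with no overlap (-0.17 ± 0.04, limma adjusted p = 0.43). IL1B, the inflammasome cytokine, had 5.49, 7.26 and 7.92 FPKM with glucose and 7.86, 8.57 and 10.3 FPKM without, and its lowest value was that of glucose 3 (-0.29 ± 0.09, limma adjusted p = 0.458). CXCL16, a scavenger receptor and chemokine, differed by -0.18 ± 0.06 (limma adjusted p = 0.497) and overlaps the genes MED11 and ZMYND15.

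Adhesion and receptor genes lay lower with glucose mainly in the cells without AGEs. Of 23 integrin and adhesion genes 19 lay below 0, with a median of -0.13, made of -0.03 with AGEs and -0.24 without. Of 14 Fc and complement receptor genes 11 lay below 0, with a median of -0.11, made of 0.02 with AGEs and -0.22 without. Neither difference between AGEs levels was tested over the list. CR1, the receptor for complement C3b, had 25.5, 28.1 and 32.0 FPKM with glucose and 29.5, 34.7 and 38.3 FPKM without, and 5 of 6 libraries with glucose lay below all of those without (-0.28 ± 0.07, limma adjusted p = 0.43). ITGAM, the alpha chain of the complement receptor Mac-1, had medians of 59.1 and 68.6 FPKM (-0.18 ± 0.06, limma adjusted p = 0.497). SELPLG, the selectin ligand PSGL-1 that starts rolling on endothelium, had medians of 29.7 and 32.6 FPKM (-0.19 ± 0.06, limma adjusted p = 0.486). FCGR2B, the inhibitory Fc receptor, differed by -0.23 ± 0.08 (limma adjusted p = 0.507), with 0.02 with AGEs and -0.47 without, a gap that passed the interaction test with library weights only.

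Among other surface receptors of myeloid cells 15 of 21 lay below 0. CD300E, an activating receptor of monocytes, had medians of 2.78 FPKM with glucose and 3.71 FPKM without (-0.32 ± 0.08, limma adjusted p = 0.43), and CD300LF, an inhibitory member of the same family, had 55.0 and 41.0 FPKM (0.31 ± 0.11, limma adjusted p = 0.497). The 2 relatives thus lay on opposite sides of 0, and CD300LF overlaps the gene RAB37. Of 32 neutrophil receptor genes 24 lay below 0, with a median of -0.06, made of 0.02 with AGEs and -0.09 without. CSF2RB, the shared beta chain of the GM-CSF receptor, differed by -0.11 ± 0.04 (limma adjusted p = 0.486), and SIGLEC5, an inhibitory lectin, by -0.37 ± 0.15 (limma adjusted p = 0.533).

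Retinoic acid response genes, which mark the granulocyte differentiation that all-trans retinoic acid sets off in HL-60 cells, lay below 0 in 12 of 12 members. The median was -0.14, made of -0.05 with AGEs and -0.19 without. At an unadjusted p under 0.05 were 7 lower members (58.3%, against 8.8% of all genes), none of them called by limma. The members' mean deviation ran from -0.135 to 0.014 in the libraries with glucose and from 0.006 to 0.097 in those without. These ranges overlapped, at AGEs plus glucose 3 (0.014) and AGEs 3 (0.006). ASB2, a ubiquitin ligase subunit, had 129, 145 and 154 FPKM with glucose and 148, 159 and 182 FPKM without (-0.18 ± 0.05, limma adjusted p = 0.43). UBA7, the enzyme that activates ISG15 and so an interferon target as well, had medians of 6.56 and 7.47 FPKM (-0.19 ± 0.06, limma adjusted p = 0.439). RARRES3, a phospholipase, had medians of 8.17 and 10.4 FPKM (-0.28 ± 0.09, limma adjusted p = 0.467). In each of these 3 genes 4 of 6 libraries with glucose lay below all of those without. The receptor RARA itself differed by -0.31 ± 0.11 (limma adjusted p = 0.497). The agent used to induce the cells is not given in the labels.

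**Figure D2:**
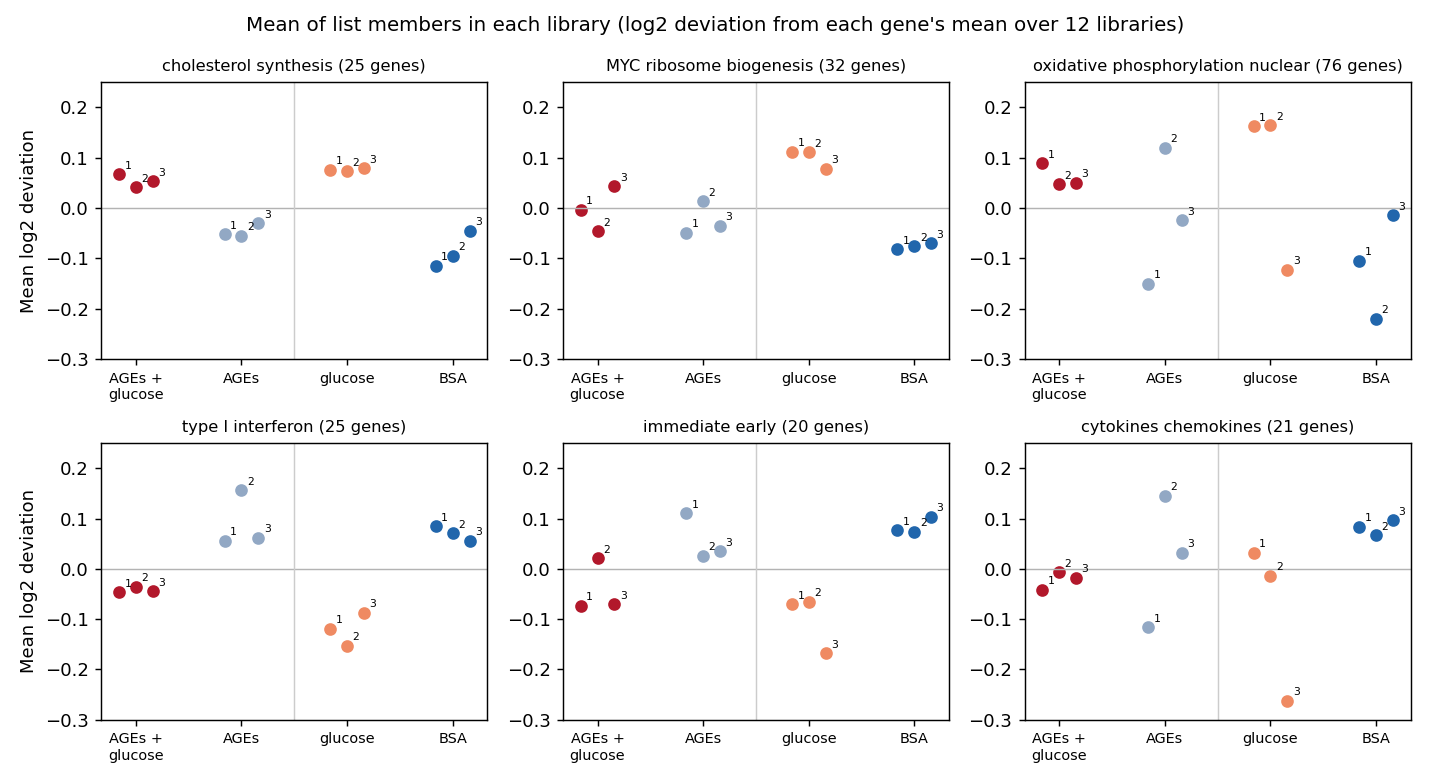
Mean deviation of 6 gene lists in each library (log2, each gene set against its own mean over 12 libraries), with replicate numbers beside the points. Cholesterol synthesis, type I interferon and immediate early genes separate the 6 libraries with glucose from the 6 without. MYC and ribosome biogenesis, oxidative phosphorylation and cytokines do not. In oxidative phosphorylation and cytokines glucose 3 lies far below the other libraries with glucose.

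Among genes higher with glucose TTC3, a ubiquitin ligase encoded on the Down syndrome region of its chromosome, had the smallest p. It had 5.21, 5.56 and 5.38 FPKM in AGEs plus glucose and 5.30, 5.49 and 5.36 FPKM in glucose, against 3.21, 3.97 and 3.91 FPKM in AGEs and 4.27, 4.51 and 4.01 FPKM in BSA. The groups did not overlap, and the 6 libraries with glucose lay within a narrow band. The log2 change was 0.36 ± 0.06 (limma adjusted p = 0.131), with an adjusted p from 0.0215 to 1 over the further fits. MRPL10, a protein of the large mitochondrial ribosomal subunit, had 11.5, 11.1 and 11.7 FPKM in AGEs plus glucose and 11.9, 10.5 and 9.60 FPKM in glucose, against 6.58, 5.42 and 5.63 FPKM in AGEs and 5.50, 5.72 and 11.8 FPKM in BSA. Only BSA 3 of the libraries without glucose reached the level of those with it. The log2 change was 0.68 ± 0.15 (limma adjusted p = 0.376), and without BSA 3 it was 0.84 and called (limma adjusted p = 0.000453, against up to 1 in the other fits). AC010547.9, a gene without a match in the name table, had medians of 1.26 FPKM with glucose and 0.127 FPKM without, near the limit of the table, and overlapped (0.81 ± 0.17, limma adjusted p = 0.376). Its highest library without glucose was at 0.589 FPKM. It thus passed the filter only through libraries with glucose, and its place among these genes rests partly on that.

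Cholesterol synthesis genes lay higher with glucose. They form the mevalonate pathway, which the factor SREBF2 switches on when sterols run low and which builds on acetyl-CoA and NADPH. Of 25 tested members 23 lay above 0, with a median log2 change of 0.12, made of 0.08 with AGEs and 0.17 without. No member was called by limma, and 10 higher and 0 lower members had an unadjusted p under 0.05 (40.0%, against 8.8% of all genes). The members' mean deviation ran from 0.04 to 0.08 in the libraries with glucose and from -0.11 to -0.03 in those without, with no overlap.

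ACAT2, the acetyl-CoA acetyltransferase at the head of the pathway, had 37.7, 38.8 and 37.1 FPKM in AGEs plus glucose and 41.7, 39.1 and 41.4 FPKM in glucose, against 35.4, 34.4 and 34.5 FPKM in AGEs and 30.7, 32.1 and 32.8 FPKM in BSA (0.23 ± 0.05, limma adjusted p = 0.376). FDPS, the farnesyl diphosphate synthase, had 58.8, 62.6 and 65.1 FPKM in AGEs plus glucose and 62.3, 63.2 and 57.6 FPKM in glucose, against 53.7, 56.6 and 53.0 FPKM in AGEs and 53.9, 50.8 and 54.9 FPKM in BSA (0.19 ± 0.04, limma adjusted p = 0.376). FDFT1, the squalene synthase, had medians of 36.5 FPKM with glucose and 33.4 FPKM without (0.14 ± 0.04, limma adjusted p = 0.43). None of the 3 overlapped between the groups. HMGCS1, the synthase that makes HMG-CoA, had medians of 66.5 and 56.8 FPKM with overlap (0.26 ± 0.08, limma adjusted p = 0.439). ACAT2 overlaps the spans of the genes TCP1 and SOD2, and reads from any shared stretch cannot be told apart. The sterol regulatory element core TCACNCCAC, searched on both strands, was in 1 of 19 list promoters (5.26%) and in 83 of 7964 of all genes tested (1.04%). That share does not bear on glucose either.

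Fatty acid synthesis genes lay closer to 0, with 11 of 15 above it and a median of 0.06. It was 0.04 without AGEs plus glucose 2 or AGEs plus glucose 3. By AGEs level it was 0.07 with AGEs, where 11 lay above 0, and 0.01 without AGEs, where 9 did. SCD, the desaturase that makes oleate, had 177, 181 and 182 FPKM with glucose and 162, 167 and 175 FPKM without, with no overlap (0.11 ± 0.03, limma adjusted p = 0.43). FADS1, the delta-5 desaturase, had medians of 8.16 and 7.28 FPKM with overlap (0.13 ± 0.05, limma adjusted p = 0.541), and it overlaps the gene FADS2. ACAT2, FDPS, FDFT1 and SCD were thus separated between the groups by narrow margins, each by less than 1.2-fold on average.

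Heat shock genes of the cytosol and mitochondria lay above 0 in 17 of 21 members. Their median was 0.11, made of 0.02 with AGEs and 0.15 without. With 7 higher and 1 lower at an unadjusted p under 0.05 (38.1%, against 8.8% of all genes), none was called by limma. The members' mean deviation ran from -0.05 to 0.10 with glucose and from -0.13 to 0.02 without, so the groups overlapped. HSP90AB1, the constitutive HSP90, had 317, 332 and 364 FPKM with glucose and 301, 305 and 311 FPKM without, with no overlap (0.14 ± 0.04, limma adjusted p = 0.43). HSPA8, the constitutive HSC70, had 132, 147 and 158 FPKM with glucose and 119, 129 and 136 FPKM without (0.19 ± 0.06, limma adjusted p = 0.439). In HSPA8 the difference was 0.03 ± 0.05 with AGEs and 0.36 ± 0.05 without, and the interaction did not pass (limma adjusted p = 0.31) except with library weights. HSPH1, a cofactor of HSC70, differed by 0.20 ± 0.07 and HSPA9, the mitochondrial HSP70, by 0.11 ± 0.04.

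The promoter of HSPA8 is shown with the heat shock element core GAANNTTC in capitals, searched on both strands after the values were seen. It runs over the same window in RefSeq on GRCh38.p14, at chr11:123062087-123062386 on the minus strand.
HSPA8: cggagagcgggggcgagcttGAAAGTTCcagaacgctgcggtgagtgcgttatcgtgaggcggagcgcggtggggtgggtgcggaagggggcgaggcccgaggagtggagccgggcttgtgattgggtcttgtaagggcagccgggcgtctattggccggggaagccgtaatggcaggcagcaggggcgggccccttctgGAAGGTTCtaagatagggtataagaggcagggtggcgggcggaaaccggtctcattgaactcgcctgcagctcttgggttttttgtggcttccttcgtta
It holds 2 matches, starting at bases 21 and 201, and they do not overlap. Of 19 list members with a promoter 7 held a match (36.8%), against 361 of 7964 genes tested (4.53%). The list was chosen as heat shock genes, so this share does not bear on glucose.

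Over all 12 libraries genes of protein synthesis and breakdown lay above 0 nearly throughout, by small amounts. With AGEs they did so less, and the gaps between AGEs levels were not tested over the lists. In each of these lists the members' mean deviation overlapped between the libraries with glucose and those without. Of 32 MYC target and ribosome biogenesis genes 31 lay above 0, with a median of 0.10. At an unadjusted p under 0.05 were 8 of them (25%, against 8.8% of all genes). Their median was 0.02 with AGEs, where 17 lay above 0, and 0.19 without AGEs, where 31 did. Their mean deviation ran from -0.05 to 0.11 with glucose and from -0.08 to 0.01 without. NOP56, a core protein of box C/D snoRNPs, had medians of 22.0 FPKM with glucose and 19.9 FPKM without (0.14 ± 0.05, limma adjusted p = 0.497), and FBL, its methyltransferase partner, had 89.0 and 78.1 FPKM (0.18 ± 0.08, limma adjusted p = 0.541). Of 18 aminoacyl-tRNA synthetases 17 lay above 0 with a median of 0.09. It was 0.04 with AGEs, where 12 lay above 0, and 0.13 without AGEs, where 16 did. RARS, the arginyl enzyme, differed by 0.15 ± 0.05, and TARS, the threonyl enzyme, by 0.14 ± 0.05, TARS without overlap at 23.9 to 28.3 FPKM with glucose and 20.8 to 23.7 FPKM without.

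Cytosolic ribosomal proteins lay above 0 in 62 of 69 members with a median of 0.06. It was 0.03 with the GC and length trends removed and 0.03 with quantile normalization. With AGEs 45 lay above 0 (median 0.03), against 66 without AGEs (median 0.09). RPL23A and RPL7, proteins of the large subunit, had medians of 366 and 285 FPKM with glucose and 335 and 266 FPKM without. The share of members at an unadjusted p under 0.05, 10.1%, was near that of all genes. Mean deviations of the list ran from -0.06 to 0.07 in the libraries with glucose and from -0.12 to 0.05 in those without. Proteasome genes lay above 0 in 35 of 37 members with a median of 0.07 and a share of 10.8% (8.8% of all genes). The median was 0.04 with the GC and length trends removed. With AGEs 22 lay above 0 (median 0.02), against 33 without AGEs (median 0.12). Mean deviations of the list ran from -0.02 to 0.09 with glucose and from -0.12 to 0.08 without. The core particle subunits PSMA6 and PSMA4 differed by 0.19 ± 0.07 and 0.18 ± 0.07. The chaperonin CCT genes lay above 0 in 11 of 14 with a median of 0.09. It was 0.03 with the GC and length trends removed and 0.05 without glucose 2. With AGEs 8 lay above 0 (median 0.03), against 12 without AGEs (median 0.13). Mean deviations of the list ran from -0.06 to 0.10 with glucose and from -0.11 to 0.09 without.

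Nuclear genes of oxidative phosphorylation lay above 0 in 72 of 76 members. Their median was 0.13, made of 0.07 with AGEs and 0.17 without. At an unadjusted p under 0.05 were 16 higher and 1 lower (22.4%, against 8.8% of all genes), and none was called by limma. The libraries did not follow glucose closely, since glucose 3 had a mean deviation of -0.12, below 4 of the 6 libraries without glucose, and AGEs 2 had 0.12. ATP5A1, the alpha subunit of ATP synthase, had 32.7, 46.5 and 50.05 FPKM with glucose and 31.2, 31.7 and 33.8 FPKM without (0.39 ± 0.11, limma adjusted p = 0.43). NDUFS6, a subunit of complex I, had medians of 29.3 and 24.8 FPKM (0.23 ± 0.07, limma adjusted p = 0.486), and it overlaps the gene MRPL36. After trends with GC content and gene length were removed from each library, the list's median was 0.07.

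Mitochondrial ribosomal proteins lay above 0 in 57 of 77 members, with a median of 0.06, or 0.03 with the GC and length trends removed. With AGEs 48 lay above 0 (median 0.02), against 61 without AGEs (median 0.10). The members' mean deviation ran from -0.07 to 0.09 with glucose and from -0.12 to 0.09 without, so the groups overlapped. Beside MRPL10, MRPL3 differed by 0.16 ± 0.06 (limma adjusted p = 0.497). Import and membrane genes of the mitochondrion lay above 0 in 22 of 25, with a median of 0.10, made of 0.04 with AGEs and 0.16 without. The protease CLPP was at 0.15 ± 0.05 and the import chaperone TIMM8A at 0.14 ± 0.06. The 13 genes encoded by mitochondrial DNA had a median of 0.03, which turned to -0.07 after the GC and length trends were removed. Ribosomal proteins, HSPA8, HSP90AB1 and FDPS have processed pseudogenes of near-identical sequence, and how the counting treated reads shared with them is not given.

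**Figure D3:**
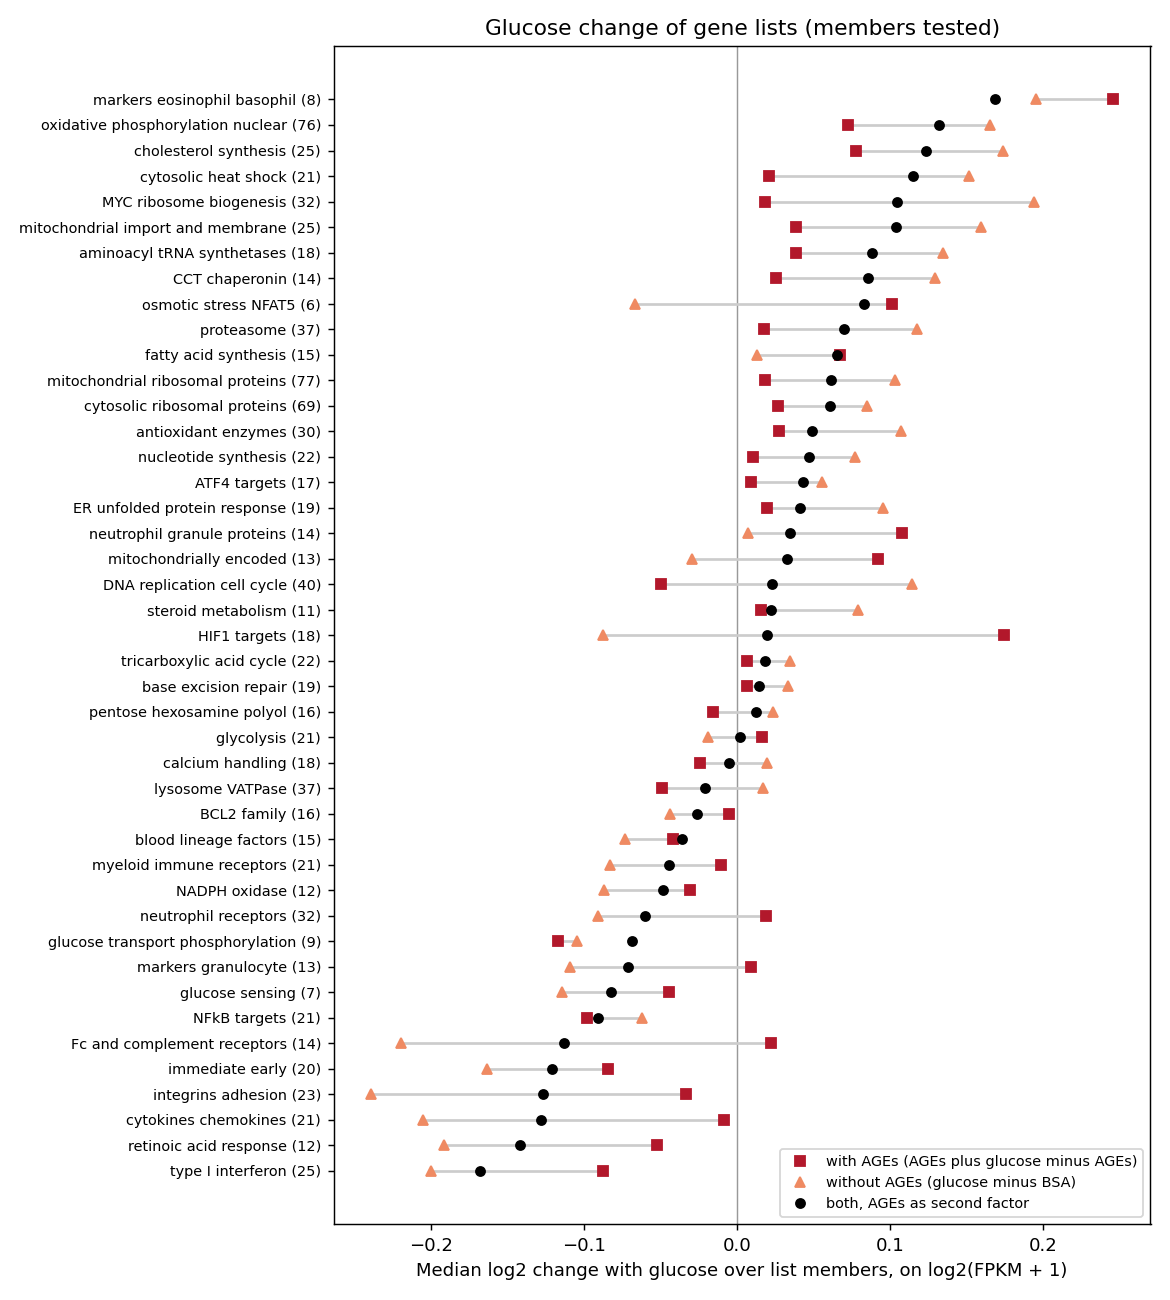
Median log2 change with glucose of each gene list with at least 5 members tested (number in brackets), on log2(FPKM + 1). Black points are the fit over all 12 libraries, squares AGEs plus glucose minus AGEs and triangles glucose minus BSA, and the triangles lie farther from 0 than the squares in most lists at the top and bottom.

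Eosinophil and basophil markers lay above 0 in 8 of 8 members tested, with a median of 0.17. At an unadjusted p under 0.05 were 5 of them (62.5%, against 8.8% of all genes). The members' mean deviation ran from -0.09 to 0.20 in the libraries with glucose and from -0.28 to 0.03 in those without, so the groups overlapped. Glucose 3 was the lowest of those with glucose and AGEs 2 the highest of those without. EPX, the eosinophil peroxidase, had 13.6, 15.1 and 17.6 FPKM with glucose and 11.8, 12.1 and 17.2 FPKM without (0.23 ± 0.08, limma adjusted p = 0.489). PRG2, the major basic protein, had 140, 157 and 180 FPKM with glucose and 80.9, 138 and 147 FPKM without (0.33 ± 0.12, limma adjusted p = 0.497). CLC, the Charcot-Leyden crystal protein, had 2220, 2470 and 2563 FPKM with glucose and 2085, 2294 and 2417 FPKM without (0.10 ± 0.03, limma adjusted p = 0.497). Its sign turned to -0.03 after the GC and length trends were removed. The summed level of the list, nearly all of it CLC, ran from 2401 to 2793 FPKM with glucose and from 2197 to 2607 FPKM without. RNASE3, HDC, MS4A2 and CPA3 were not analysed here. The part of these markers in the other lists' values was not tested.

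Of the granulocyte markers 10 of 13 tested members lay below 0, with a median of -0.07. The AGEs levels differed in this, since 8 of 13 lay above 0 with AGEs (median 0.01) and 4 of 13 without AGEs (median -0.11), and that gap was not tested over the list. S100A8, the calcium-binding chain of calprotectin, was an exception, with medians of 44.0 FPKM with glucose and 35.7 FPKM without (0.28 ± 0.08, limma adjusted p = 0.43). It overlaps the gene S100A7A. MPO, the myeloperoxidase of azurophil granules, had 90.1, 108 and 127 FPKM with glucose and 102, 111 and 134 FPKM without (-0.08 ± 0.08, limma adjusted p = 0.775). Its log2 difference was 0.11 ± 0.08 with AGEs and -0.27 ± 0.08 without, and this gap passed the interaction test with library weights only. The 14 granule protein genes had a median of 0.03, 10 of them above 0, and the median turned to -0.02 with the GC and length trends removed. Of the 12 genes of the NADPH oxidase 9 lay below 0, with a median of -0.05 and none at an unadjusted p under 0.05.

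The remaining lists lay near 0 or were small. DNA replication and cell cycle genes had 26 of 40 above 0 and a median of 0.02, which was -0.05 with AGEs and 0.11 without. Cyclin D1 (CCND1) differed by -0.16 ± 0.05 and cyclin E1 (CCNE1) by 0.14 ± 0.05. Targets of ATF4, the factor of amino acid stress, had a median of 0.04, with asparagine synthetase (ASNS) at 0.17 ± 0.05 and the factor CEBPB at -0.21 ± 0.07. CEBPB, which drives emergency granulopoiesis, had 156, 163 and 169 FPKM with glucose and 172, 182 and 236 FPKM without, with no overlap. Lysosome and proton pump genes had a median of -0.02, antioxidant enzymes 0.05 and nucleotide synthesis genes 0.05. In the BCL2 family 11 of 16 lay below 0, while the survival gene BCL2A1 had medians of 98.6 FPKM with glucose and 88.9 FPKM without (0.22 ± 0.07, limma adjusted p = 0.486). Only 6 osmotic stress genes of NFAT5 were tested, with 4 above 0 and a median of 0.08 that was 0.03 without AGEs 1 and -0.07 in the cells without AGEs.

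In the fit without AGEs 1 and glucose 3, chosen after seeing the data, most list medians lay close to those of all 12 libraries. They were -0.19 for the type I interferon genes, -0.13 for the retinoic acid genes, -0.10 for the immediate early genes and -0.08 for the cytokines. They were 0.12 for cholesterol synthesis, 0.14 for nuclear oxidative phosphorylation, 0.08 for MYC and ribosome biogenesis and 0.08 for heat shock. The cytokine list moved by over 1.5 times, and the other 7 moved less.

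The change with glucose was next compared between the AGEs levels, which share no library. Over the 9751 genes the change for AGEs plus glucose minus AGEs and that for glucose minus BSA correlated at r = 0.108, a description across genes, which are not independent replicates. Of all genes 56.9% had the same sign. Of the 146 genes higher at an unadjusted p under 0.05 with AGEs 61.0% were above 0 without AGEs, and of the 217 lower ones 64.1% were below 0. Of the 456 genes higher at an unadjusted p under 0.05 without AGEs 60.5% were above 0 with AGEs, and of the 521 lower ones 68.3% were below 0. With AGEs 363 genes reached that level, against 977 without, and the SD of the differences over genes was 0.158 with AGEs and 0.185 without on the log2 scale. The comparison without AGEs also differs in BSA, and the part of BSA in this gap cannot be told apart.

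**Figure D4:**
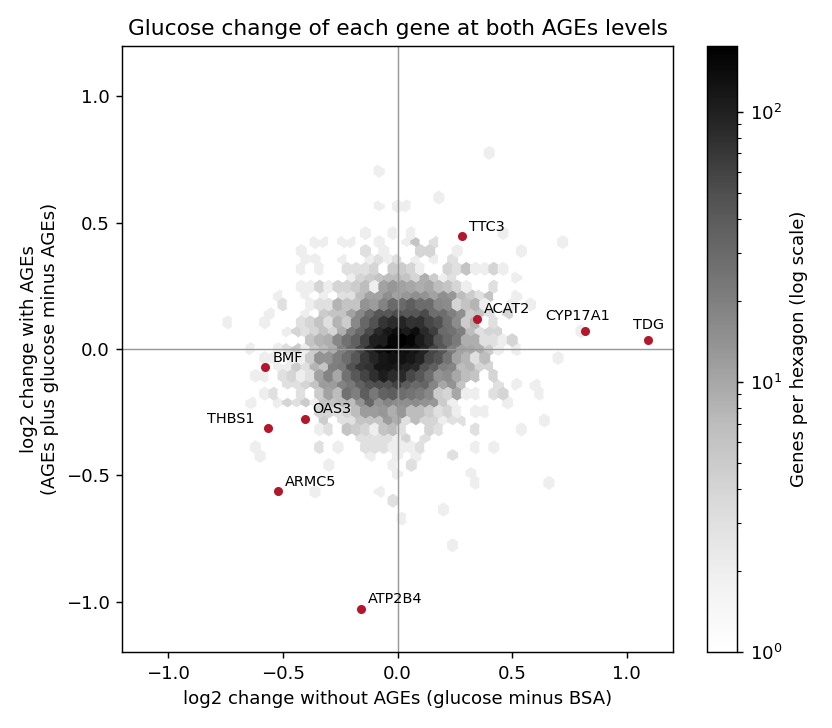
Log2 change with glucose of each gene without AGEs (glucose minus BSA, horizontal) and with AGEs (AGEs plus glucose minus AGEs, vertical), with shading for genes per hexagon on a log scale. The cloud is nearly round (r = 0.108), THBS1, ARMC5, OAS3, TTC3 and ACAT2 lie off 0 on both axes, and TDG, CYP17A1, BMF and ATP2B4 lie far out along 1 axis only.

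The test of glucose by AGEs called 1 gene (0.0103% of 9751), TDG. At an unadjusted p under 0.05 were 477, where chance alone gives 488, so over all genes there was no excess. TDG is the thymine DNA glycosylase of base excision repair and active DNA demethylation. It had 15.5, 17.3 and 16.6 FPKM in AGEs plus glucose and 15.3, 16.6 and 16.1 FPKM in AGEs. It had 18.2, 17.5 and 17.9 FPKM in glucose and 6.86, 8.13 and 8.66 FPKM in BSA. BSA alone was low, and the other 3 groups lay together. The log2 change with glucose was 0.04 ± 0.08 with AGEs and 1.09 ± 0.08 without, and their difference was -1.05 (limma adjusted p = 0.0148). The call was lost without AGEs 3, without BSA 2, without AGEs plus glucose 3 and without glucose 2, which left 0 genes each time. In the main fit, with AGEs as a second factor, TDG was not called for glucose (0.56 ± 0.16, limma adjusted p = 0.43). The fit of 4 group means, which averages the AGEs levels, called it at the same 0.56 (limma adjusted p = 0.00372). TDG has a pseudogene of near-identical sequence, and the other base excision repair genes lay around 0, with 10 of 19 above it. NEIL2, a glycosylase for oxidised bases, had medians of 1.23 FPKM with glucose and 2.25 FPKM without (-0.43 ± 0.15, limma adjusted p = 0.497).

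ATP2B4 pumps calcium out across the plasma membrane and was the mirror case, with the difference in the cells with AGEs. It had 22.3, 21.7 and 20.9 FPKM in AGEs plus glucose and 46.9, 43.3 and 45.1 FPKM in AGEs. It had 18.7, 21.4 and 22.2 FPKM in glucose and 24.1, 24.9 and 20.9 FPKM in BSA. AGEs alone was high, at -1.03 ± 0.08 for AGEs plus glucose minus AGEs and -0.16 ± 0.08 for glucose minus BSA, and the interaction stayed above the threshold (limma adjusted p = 0.0555). It passed in 6 further fits, namely those with a floor of 5 on the mean FPKM, without any filter, with median-of-ratios scaling, with library weights, with GC and length trends removed and without glucose 1. Of 18 calcium handling genes 9 lay above 0 and 9 below.

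CYP17A1, the steroid 17-hydroxylase, had 6.82, 6.93 and 5.48 FPKM in AGEs plus glucose and 6.11, 5.93 and 6.03 FPKM in AGEs. It had 11.6, 11.98 and 12.3 FPKM in glucose and 6.37, 6.91 and 5.80 FPKM in BSA. Glucose without AGEs stood alone (0.07 ± 0.09 with AGEs and 0.82 ± 0.09 without; interaction limma adjusted p = 0.119). STARD3, a cholesterol transfer protein of the same list, differed by 0.15 ± 0.06. BMF, a pro-apoptotic BH3-only protein, had 13.1, 13.2 and 12.99 FPKM in AGEs plus glucose and 15.3, 13.4 and 12.9 FPKM in AGEs, and 8.77, 8.26 and 8.61 FPKM in glucose against 12.8, 13.3 and 13.6 FPKM in BSA. Here too glucose without AGEs stood alone (-0.07 ± 0.07 with AGEs and -0.58 ± 0.07 without; interaction limma adjusted p = 0.306). The interaction passed for BMF without AGEs 1, whose value was the highest, with library weights, and without both AGEs 1 and glucose 3, a fit chosen after seeing the data.

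**Figure D5:**
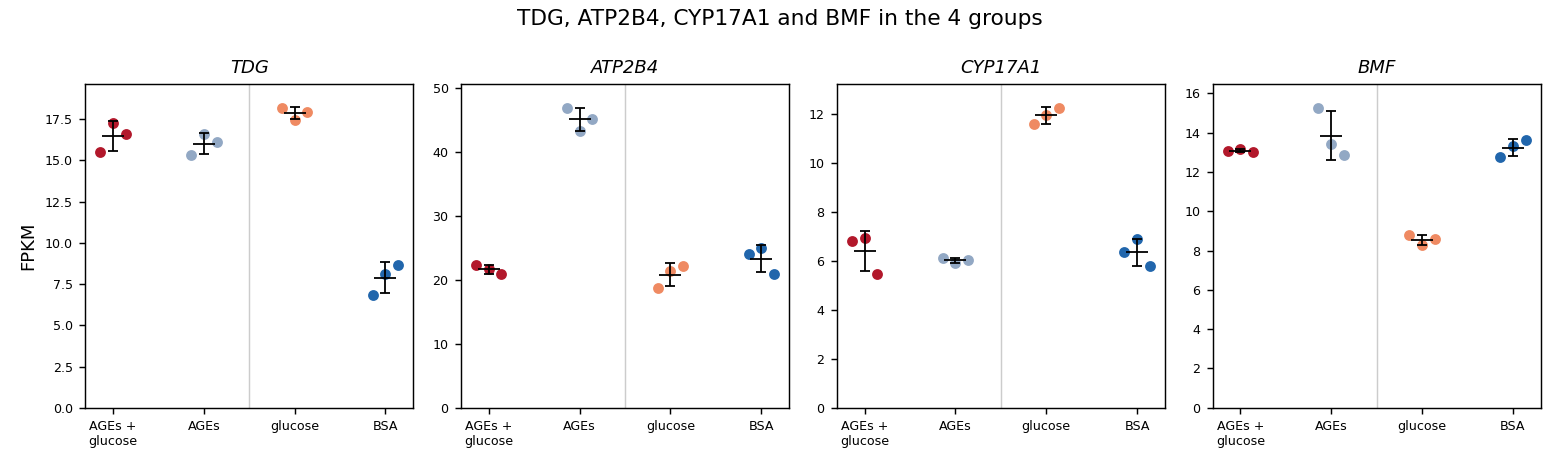
FPKM of TDG, ATP2B4, CYP17A1 and BMF in AGEs plus glucose, AGEs, glucose and BSA, with libraries as points and the mean and SD of 3 as bars on axes from 0. In each gene a single group stands apart: BSA for TDG, AGEs for ATP2B4 and glucose for CYP17A1 and BMF.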

How the data were processed

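The authors deposited a table of gene-level FPKM values, 1 column per library, per the file headers. Tools named in the submitters' processing notes, without their roles, are STAR 2.5.2b, HISAT2 2.0.5, StringTie and cutadapt, and the genome build there is hg19. For annotation, strandedness and filters there is no entry in the sources used here. There are 10465 rows, in each of which the highest group mean is at least 0.5001 FPKM, and FPKM sums ran from 220444 to 233854 per library. Low values share no common step of 1 read, so depth is unknown and no counting interval was computed.

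Values were analysed as log2(FPKM + 1), so changes of low genes are understated. The filter removed 714 rows. Limma 3.58.1 (R 4.3.3, statmod 1.5.0), with variance moderation that was robust and followed a trend with intensity, was fitted with glucose and AGEs as factors, and for the interaction and the AGEs levels with 4 group means. P-values are two-sided, and adjusted p-values are Benjamini-Hochberg values over 9751 genes with a threshold of 0.05. Errors are SE in changes and SD in levels. The scripts were tested on simulated data.

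The members and the 46 lists (1178 entries, 143 of them not analysed here) were chosen with earlier results of these data known. Lists are described by counts and medians beside all genes, with no set test. Named genes are the 5 with the smallest p in each direction (none was called), those called in the interaction, up to 4 per list by p, and TXNIP, ARRDC4, SLC2A1, SLC2A3, HK1, HK2, HK3 and MPO; for some lists fewer or none are given.

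Symbols were matched to the RefSeq annotation of GRCh38.p14 (9816 current, 463 by 1 older symbol, 186 unmatched), used for gene overlaps and promoters, none of it for hg19 coordinates. Of 83 genes looked up 82 matched, and 11 overlap a coding gene. Overlaps are of whole gene spans, without regard to exons or strand. Transcript length and GC content were known for 9643 genes tested. Alternatives were another pseudocount and filters, other scalings, library weights, no trend, a minimum fold, GC and length trends removed, the replicate number as a block, no AGEs term, 4 group means, each AGEs level alone and each library left out.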

Additional observations from a re-analysis of the deposited data

Results flagged for a closer look

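In arms of 6 libraries a library was singled out where its gap to the next one was large for the range (Dixon's test at 95%). Over 2 arms of each gene looked at, chance alone gives about 1 in 20 groups, and 12 were found among 166. Library AGEs 1 was the highest of those without glucose for BMF (15.3 FPKM, next 13.6), CEBPB (236, next 188), EPX (17.2, next 12.7), HK3 (58.5, next 48.7) and JUNB (74.3, next 60.9). BSA 3 was the highest of those for ASNS (4.79 FPKM, next 4.03) and MRPL10 (11.8, next 6.58). Glucose 3 was the highest of the libraries with glucose for ARRDC4 (6.05 FPKM, next 5.18) and the lowest for IL1B (5.49, next 7.05) and SLC2A5 (67.5, next 70.5). Glucose 2 was the lowest for IFIT2 (1.205 FPKM, next 1.66), and AGEs plus glucose 2 the highest for IRF7 (6.06 FPKM, next 5.20).

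The glucose change of TDG differed between AGEs levels by -1.05 on the log2 scale in the test of the difference itself.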

How the results depend on the processing

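Of 27 further fits, 1 of them (AGEs 1 and glucose 3 left out together) chosen after seeing the data, calls for glucose were few throughout. Library weights gave 1 higher (TTC3) and 1 lower (ARMC5), removal of GC and length trends 1 higher (TTC3) and 1 lower (THBS1), and the fit of 4 group means 2 higher (TDG, CYP17A1) and 2 lower (ATP2B4, THBS1). The 6 libraries with AGEs alone gave 1 lower (ATP2B4), and the 6 without gave 5 higher (CAB39, CYP17A1, HNRNPA1L2, SAR1A, TDG). With 1 library left out the counts ran from 0 to 1 higher and from 0 to 1 lower: MRPL10 higher without BSA 3, THBS1 lower without AGEs 2, ARMC5 lower without glucose 3. Without AGEs 1 and glucose 3 there was 1 lower (ARMC5). The remaining fits, the replicate block among them, gave 0 and 0.

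The interaction called 1 gene, and 3 with no filter, 2 at a mean FPKM of at least 5, 2 with median-of-ratios scaling, 14 with library weights (HSPA8, MPO, FCGR2B, BMF and ATP2B4 among them), 3 with GC and length trends removed, 0 to 4 with 1 library left out and 7 without AGEs 1 and glucose 3. TDG was among them wherever any gene was called. With the replicate block it remained 1. Same-numbered libraries of different groups deviated with r from -0.214 to 0.128, so the numbers were not taken to pair the samples.

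Signs turned in 7 named genes. CLC was not close to 0 over all 12 libraries and turned only with the GC and length trends removed. The others were close to 0 or differed between AGEs levels. With AGEs alone the log2 change was 0.054 for ARRDC4, 0.016 for FCGR2B, 0.108 for MPO and 0.123 for SLC2A3, and without AGEs alone -0.0324 for HK2. With GC and length trends removed it was -0.0335 for CLC and 0.000555 for HK1. With 1 library left out it ran from -0.0327 to 0.0232 for ARRDC4 and from -0.00048 to 0.0245 for HK2. The causes were not tested. Of 43 list medians over 5 genes or more 27 kept their sign in all further fits, those of the interferon, cholesterol, immediate early, oxidative phosphorylation and retinoic acid lists among them. The other 16 turned in at least 1 fit, at 1 AGEs level alone for neutrophil receptors, Fc and complement receptors and granulocyte markers, and with GC and length trends removed for granule proteins, mitochondrially encoded, steroid and calcium genes. With 3 libraries per group, unknown depth and a median SE of 0.08, changes under about 1.2-fold are poorly resolved.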
